A study of Saccharomyces cerevisiae with 8 samples.

Results

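HXT13, HXT17, DSF1 and MAN2 are 4 of the 6696 gene regions counted in each library. They encode the hexitol side of sugar uptake in budding yeast: HXT13 and HXT17 are transporters of the hexose transporter family that carry mannitol and sorbitol, and DSF1 and MAN2 are mannitol dehydrogenases. They were chosen by their exon reads, which were higher in replicate 2 than in replicate 1 of the grr1-deficient cells, with HXT17 added as the paralog of HXT13. That difference between replicates is therefore described here and not tested. DSF1 is named in the authors' deposited table for wild-type cells, and HXT13 and DSF1 in the one for grr1-deficient cells, so HXT17 and MAN2 were matched through the RefSeq symbols of their locus tags.

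The libraries hold total RNA of yeast of the W303 background, either wild type (WT) or deficient in GRR1; the labels give no further detail of the allele. All cultures were kept at 30 °C in SC medium (synthetic complete) containing 2% glucose, and drug was added once the OD600 reached 0.2. Tunicamycin, which blocks N-linked glycosylation and so stresses the endoplasmic reticulum, was given at 1 µg/ml, and RNA was taken at 0 h and 4 h. The 4 groups, WT at 0 h, WT at 4 h, grr1-deficient at 0 h and grr1-deficient at 4 h, have 2 biological replicates each, 8 libraries in all. Mannitol and sorbitol are not named in the growth medium, and untreated cultures at 4 h were not analysed here, so tunicamycin and time in culture cannot be told apart.

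Hexitols such as mannitol enter a yeast cell through a few transporters and are oxidised to fructose, which then joins glycolysis. Yeast on glucose keeps most genes for other carbon sources repressed, partly through the Tup1-Cyc8 corepressor, and strains that lose this corepressor can grow on mannitol. Grr1 is the F-box subunit of an SCF ubiquitin ligase and acts on the Mth1 and Std1 regulators in the pathway that lets glucose induce hexose transporter genes.

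The genes form 2 adjacent pairs near chromosome ends, each with 1 transporter and 1 dehydrogenase whose coding regions converge. On chromosome V of build R64, DSF1 (YEL070W) spans chrV:19589-21097 on the plus strand and HXT13 (YEL069C) spans chrV:21537-23231 on the minus strand. On chromosome XIV, HXT17 (YNR072W) spans chrXIV:772657-774351 on the plus strand and MAN2 (YNR073C) spans chrXIV:774792-776300 on the minus strand. Both transporters have 1695 coding bases for 564 residues, and both dehydrogenases have 1509 coding bases for 502 residues. HXT13 and HXT17 differ at 76 coding bases (95.52% identical), and 33 of these differences lie in the first 60 bases. Those first 60 bases are shown because they hold so many of the differences, and the other differences lie further along the coding regions. Capitals mark the bases that differ, and the sequences are from the RefSeq R64 genome.
HXT13, chrV:23172-23231, minus strand: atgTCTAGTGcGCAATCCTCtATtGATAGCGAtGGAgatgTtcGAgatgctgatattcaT
HXT17, chrXIV:772657-772716, plus strand: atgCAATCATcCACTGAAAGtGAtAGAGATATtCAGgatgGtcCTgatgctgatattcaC

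Elsewhere the copies are much closer. DSF1 and MAN2 differ at 16 coding bases (98.94% identical), and their longest run without a difference is 344 bases. The stretch from coding base 31 to 100 is shown because it holds 3 of those 16 differences, in capitals.
DSF1, chrV:19619-19688, plus strand: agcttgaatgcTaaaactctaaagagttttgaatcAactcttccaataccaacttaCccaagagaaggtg
MAN2, chrXIV:776201-776270, minus strand: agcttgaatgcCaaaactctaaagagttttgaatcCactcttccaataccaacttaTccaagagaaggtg
Beyond the coding regions, the 200 bases downstream were 95.5% identical between HXT13 and HXT17 and 97.0% between DSF1 and MAN2 when aligned without gaps. The 500 bases upstream were 31.6% and 37.4% identical on the same ungapped alignment. The near-identity thus covers the coding regions and the space between the convergent genes.

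DSF1 had the highest deposited RPKM of the 4 genes in each library. Its WT reads were 6 and 6 at 0 h, then 72 and 80 at 4 h, in replicate order here and below. Its grr1-deficient reads were 146 and 854 at 0 h, then 206 and 2719 at 4 h. Scaled to library size (counts per 1e6 reads, CPM, with TMM factors), these were 0.667, 0.646, 6.71, 7.21, 19.3, 159, 23.8 and 214 CPM. Every grr1-deficient library lay above every WT library, as for 427 of 5831 nuclear genes (7.32%). Both WT libraries at 4 h lay above both at 0 h, as for 45.7% of nuclear genes, and grr1-deficient replicate 2 stood highest at each time.

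MAN2, the second mannitol dehydrogenase, had WT reads of 0 and 3 at 0 h, then 25 and 22 at 4 h, and grr1-deficient reads of 47 and 312 at 0 h, then 78 and 918 at 4 h. Its scaled levels were 0, 0.323, 2.33, 1.98, 6.23, 58.3, 9.01 and 72.3 CPM. The order of the groups was that of DSF1, again with no overlap between WT and grr1-deficient libraries (7.32% of nuclear genes). Reads of MAN2 and DSF1 cannot be told apart with certainty, as set out below, so MAN2 is not an independent case. In bulk RNA, a high level in some cells and a lower level in all of them cannot be told apart.

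HXT13, the transporter next to DSF1, had WT reads of 0 and 2 at 0 h, then 2 and 4 at 4 h. Its grr1-deficient reads were 20 and 362 at 0 h, then 15 and 1275 at 4 h. These came to 0, 0.215, 0.186, 0.360, 2.65, 67.6, 1.73 and 100.46 CPM. With 0 reads counted, a library's true count could be up to 3, or 0.242 to 0.614 unscaled CPM depending on depth, so HXT13 in WT was at or near the limit of counting. The grr1-deficient replicate 1 libraries were low but above all WT libraries, and the replicate 2 libraries were far above them.

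HXT17, the transporter next to MAN2, had 0 reads in all 4 WT libraries. Its grr1-deficient reads were 1 and 21 at 0 h, then 1 and 73 at 4 h, or 0.132, 3.92, 0.116 and 5.75 CPM. Its reads were therefore almost all in replicate 2, and it passed the expression filter through that replicate only.

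**Figure D1:**
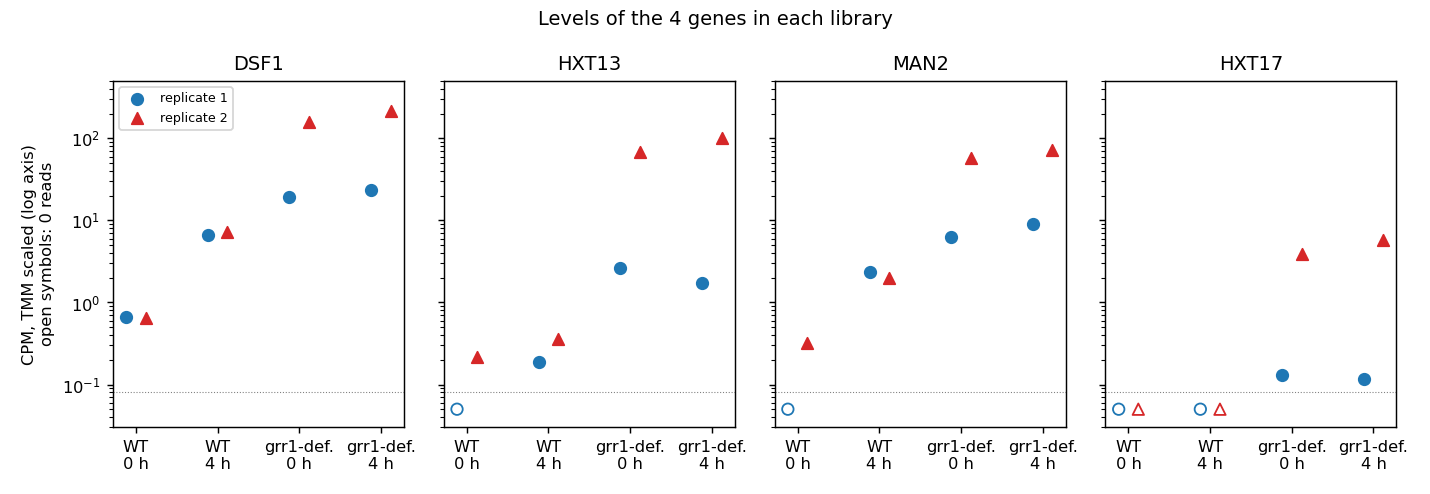
Level of each gene in CPM (TMM scaled, logarithmic axis) in every library, by group; circles are replicate 1, triangles are replicate 2, and open symbols below the dotted line mark libraries with 0 reads. The grr1-deficient replicate 2 libraries are the highest in each panel, with HXT13 at 67.6 and 100.46 CPM against 2.65 and 1.73 CPM in replicate 1.

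On the deposited RPKM scale, the order was the same in all 4 grr1-deficient libraries. These values, which divide reads by countable length and by library size, were highest for DSF1 (10.9, 102, 15.1 and 114 in the libraries at 0 h and then 4 h). MAN2 followed at 3.52, 37.4, 5.70 and 38.5 RPKM. HXT13 came next at 1.01, 29.1, 0.736 and 35.9 RPKM, and HXT17 was lowest at 0.067, 2.24, 0.065 and 2.72 RPKM. In replicate 2 the gap between MAN2 and HXT13 was small beside the gap from either to DSF1, whereas in replicate 1 HXT13 lay well under MAN2.

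Between the grr1-deficient replicates, HXT13 had the largest excess of replicate 2 among 5831 nuclear genes at both times. The log2 difference of replicate 2 from replicate 1, with a prior count of 2, was 4.57 at 0 h and 5.69 at 4 h for HXT13. HXT17 had differences of 3.57 (rank 4) and 4.17 (rank 2), and DSF1 had 3.03 (rank 9) and 3.16 (rank 5). MAN2 had differences of 3.18 (rank 7) and 2.98 (rank 8). These values chose the genes, so their ranks support nothing further.

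Over 4-fold excess of replicate 2 was seen for 44 genes at 0 h (0.755% of 5831) and 25 genes at 4 h (0.429%), and 12 genes had it at both times (0.206%), the 4 hexitol genes among them; with total counts 15 genes had it (0.257%). The others were TKL2, a transketolase; FDH1, a formate dehydrogenase; HSP30, a stress-induced membrane protein; MF(ALPHA)1, an alpha-factor pheromone gene; OSW1, a spore wall gene; and YOR231C-A, YDR183C-A and JIP3, for which no role is given here. JIP3 overlaps MID2 on the other strand, so the source of its reads is uncertain. Ordered by the smaller of the differences at 0 h and 4 h, the last gene inside the 4-fold limit was YDR183C-A at 2.06 and the first outside was SAE3 at 1.94. Another 4 genes were over 4-fold lower in replicate 2 at both times (0.0686%): MLS1, malate synthase of the glyoxylate cycle, SFC1, a mitochondrial succinate-fumarate carrier, DPA10 and YLR294C. WT replicates parted little for DSF1 at 4 h, where replicate 2 against replicate 1 had a ratio of 1.07 (95% counting interval 0.771 to 1.497). At 0 h the ratio was 0.968 (0.259 to 3.62) on 6 reads in each, too few to tell.

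**Figure D2:**
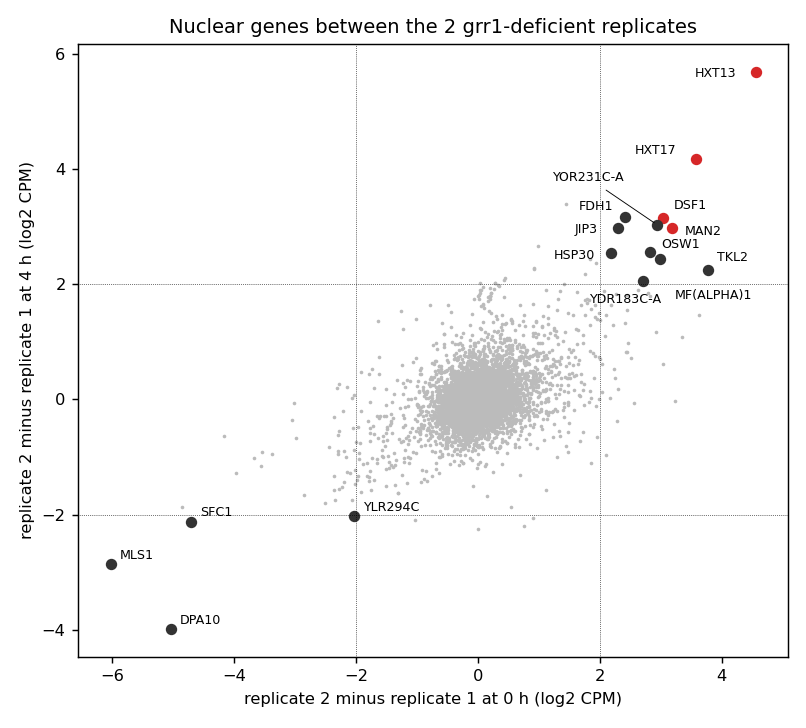
Log2 CPM of grr1-deficient replicate 2 minus replicate 1 for 5831 nuclear genes, at 0 h on the horizontal and at 4 h on the vertical axis; dotted lines mark 4-fold differences, red points are the 4 hexitol genes and black points the other genes past 4-fold at both times. HXT13 lies at the far upper right (4.57 and 5.69), and MLS1, SFC1 and DPA10 lie at the lower left.

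Other measurements moved with the same replicate. Gene reads numbered 8256539 and 4885844 in the grr1-deficient libraries at 0 h and 8155337 and 12380049 at 4 h, so replicate 2 was the shallowest library at one time and the deepest at the other, and the 4 WT libraries held 8360928 to 12119744. GRR1 had 1179 to 1829 reads in WT libraries and 2 to 12 reads in grr1-deficient ones. Reading frames of the mitochondrial genome, apart from Q0092, held 889787 and 1095064 reads in replicate 1 but 192 and 100 reads in replicate 2, against 208369 to 446361 in WT. Replicate 2 was the higher one for Q0092, at 18668 and 94706 reads against 144 and 258 in replicate 1 and 3 to 12 in WT libraries. Of the mating-type markers, MF(ALPHA)1, the MATalpha gene, had 0 and 8 reads at 0 h, then 2 and 28 at 4 h, while STE2, the alpha-factor receptor of MATa cells, had 904, 852, 948 and 1445 reads. MFA1 and MFA2, which encode the MATa pheromone, had 35 to 369 and 39 to 86 reads in the grr1-deficient libraries, and STE3, the a-factor receptor of MATalpha cells, had 67 to 444. The part of depth, mitochondrial transcripts, Q0092 or these markers in the levels of the hexitol genes was not tested.

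The proportion of transporter to dehydrogenase reads within the chromosome V pair is given as a description, since the reads of both genes chose them. For each 100 DSF1 reads, grr1-deficient replicate 1 held 13.7 HXT13 reads at 0 h (95% counting interval 8.13 to 21.9) and 7.28 at 4 h (4.00 to 12.3). Replicate 2 held 42.4 (37.4 to 48.0) and 46.9 (43.8 to 50.1). WT at 4 h held 2.78 (0.330 to 10.4) and 5.00 (1.33 to 13.3). These intervals are for single libraries and cover counting error only, and no test of the difference is made.

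Whether the genes were also high in grr1-deficient replicate 1 was asked by a comparison of that replicate alone with WT, a comparison added after the values were seen. The rule picked the genes for a low replicate 1 beside replicate 2, and it read the replicate 1 libraries but no WT library. In an edgeR quasi-likelihood fit without replicate 2, where the lone library is assumed to vary as the others do, 3556 of 5875 genes (60.5%) differed from WT at 0 h at an adjusted p under 0.05, 27.5% of those tested being higher. At 4 h 2742 genes (46.7%) differed, 24.5% of those tested being higher. HXT17, with 1 read in each library, failed the filter, and the other 3 genes were higher than in WT at both times. HXT13 passed the filter only through its grr1-deficient libraries, so its direction here was set by the filter and supports nothing further. With total counts in place of TMM, the split over all genes moved from 1614 higher and 1942 lower to 2270 and 1098 at 0 h, and from 1440 and 1302 to 882 and 2457 at 4 h. The same 3 genes were higher on that scale too.

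DSF1 in grr1-deficient replicate 1 was higher than in WT by a log2 fold change of 4.84 ± 0.32 (SE) at 0 h and 1.77 ± 0.20 at 4 h. With 1 grr1-deficient library at each time, these errors rest on the spread between WT libraries. MAN2 was higher by 5.13 ± 0.62 at 0 h and 2.06 ± 0.33 at 4 h. MAN2 had only 3 WT reads at 0 h, a ratio of 37.96 (95% counting interval 12.2 to 191), and its log2 value was 4.21 without WT 0 h replicate 1 and 8.89 without WT 0 h replicate 2, which holds those 3 reads. HXT13 rested on few reads. At 0 h it had 20 reads against 2 in both WT libraries together, a ratio of 24.2 (95% counting interval 5.89 to 214), and at 4 h it had 15 against 6, a ratio of 6.31 (2.31 to 19.8). Its log2 value at 0 h was 4.43, 3.54 without WT 0 h replicate 1 and 7.66 without WT 0 h replicate 2. Its edgeR adjusted p was 0.000144 at 0 h and 0.00853 at 4 h, where DESeq2 gave no adjusted p and an unadjusted p of 0.0341. DSF1 and MAN2 thus lay above WT in the replicate with the lower levels. For each of the 3 genes the excess was smaller at 4 h than at 0 h, a difference that is tested below as the interaction. For HXT13 the counting intervals at 0 h and 4 h overlap.

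With both replicates in the grr1-deficient group, none of the 4 genes passed in the edgeR fit, which carries the spread between the replicates. The rule chose on that spread, so this was made likely in advance. DSF1 differed from WT by a log2 value of 7.05 at 0 h (edgeR adjusted p = 0.0547) and 4.10 at 4 h (edgeR adjusted p = 0.123). MAN2 differed by 7.48 (edgeR adjusted p = 0.0631) and 4.25 (edgeR adjusted p = 0.118), and HXT13 by 8.13 (edgeR adjusted p = 0.158) and 7.49 (edgeR adjusted p = 0.156). Over the nuclear genes, every grr1-deficient library lay above every WT library for 427 of 5831 (7.32%), and both replicate 1 libraries did so for 636 (10.9%). All 4 hexitol genes were among both sets, although HXT17 was there with 1 read in each replicate 1 library, which is under the limit that a count of 0 allows.

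Replicate 2 stood above WT by far larger ratios, given as values because the rule chose them. DSF1 was 243 times the WT level at 0 h and 30.8 times at 4 h, and MAN2 was 355 and 33.6 times. HXT13 was 618 times at 0 h (95% counting interval 170 to 5124, on 2 WT reads) and 365 times at 4 h (167 to 998, on 6 WT reads). HXT17, with 0 WT reads, was 23.9-fold higher at 0 h and 41.9-fold higher at 4 h when 3 reads were put in the WT group. Its 95% counting intervals began at 17.8 and 33.2.

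In WT cells the comparison sets 4 h with tunicamycin against 0 h, and it uses no library that the rule read, apart from a shared estimate of the spread. DSF1 and MAN2 had more reads at 4 h in both replicates, HXT13 had too few reads to tell, and HXT17 had none. In the edgeR fit over all 8 libraries, 3841 of 5855 genes tested (65.6%) changed, 1905 of them upward (32.5% of those tested), and none of the 4 hexitol genes did. With total counts 3340 genes rose (57.0%) and 957 fell. At an unadjusted p under 0.05 that fit counted 4047 genes (69.1%) and again none of the 4, and DESeq2 called 1 of the 4, DSF1, on its adjusted p.

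DSF1 in WT measured 0.657 ± 0.015 CPM (SD, n = 2) at 0 h and 6.96 ± 0.35 CPM (SD, n = 2) at 4 h, a ratio of 10.6 (95% counting interval 5.90 to 21.0). Its log2 change was 3.38 ± 2.44 (SE) in the fit over 8 libraries (edgeR adjusted p = 0.284) and 3.38 ± 0.32 in a fit on the 4 WT libraries alone (edgeR adjusted p = 4.3e-07). The change was the same in both fits, and the error was wider in the fit that shares its spread with the grr1-deficient replicates. Without grr1-deficient replicate 2 at both times DSF1 changed by 3.35 (edgeR adjusted p = 1.95e-09), and over 17 alternatives its adjusted p ran from 1.95e-09 to 0.479. DESeq2 gave an adjusted p of 0.0238, and the authors' deposited table lists DSF1 at 3.39 ± 0.54 with an adjusted p of 8.64e-10.

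MAN2 in WT had 3 reads at 0 h and 47 at 4 h, a ratio of 13.1 (4.23 to 65.9). Its log2 change was 3.61 ± 3.33 in the fit over 8 libraries (edgeR adjusted p = 0.390) and 3.61 ± 0.67 in the WT libraries alone (edgeR adjusted p = 0.000244). DESeq2 over the 8 libraries gave it an adjusted p of 0.0566. Over 15 alternatives its adjusted p ran from 3.47e-05 to 0.620, and its log2 change was 2.67 without WT 0 h replicate 1 and 7.33 without WT 0 h replicate 2. In the WT-only fit, where 41.0% of 5795 genes were higher at 4 h, the 2 dehydrogenases were the 2 members tested and both rose. Their reads cannot be told apart with certainty, so they are not 2 independent results. HXT13 had 6 reads at 4 h against 2 at 0 h, a ratio of 2.51 (0.450 to 25.5; edgeR adjusted p = 0.907), which at this depth cannot show a difference.

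Both 4 h libraries lay above both 0 h libraries in WT for 45.7% of nuclear genes, so the separation of DSF1 and MAN2 there is a common one. The scale matters for all such changes: with libraries scaled to total counts instead of TMM, the median gene in WT moved from 0.03 to 0.78 on the log2 scale. The log2 change of DSF1 was 4.12 and that of MAN2 was 4.32 on that scale, so the excess over the median gene was little altered.

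In grr1-deficient cells the differences of the 4 genes between 0 h and 4 h were small beside the gap between the replicates. The rule chose on that gap, and the gap is the spread that this test sets a change against. That none of the 4 passed was thus made likely in advance and is not a result about them. Of 5855 genes tested, 2696 (46.0%) changed in the edgeR fit, and none of the 4 hexitol genes did; at an unadjusted p under 0.05 the fit counted 3170 genes (54.1%) and none of the 4, and DESeq2 called none. The log2 changes were 0.43 ± 1.36 (SE) for DSF1 (edgeR adjusted p = 0.818), 0.38 ± 1.33 for MAN2 (0.836), 0.59 ± 1.95 for HXT13 (0.828) and 0.73 ± 1.94 for HXT17 (0.788). The authors' deposited table lists HXT13 at 0.56 ± 2.41 with an adjusted p of 0.886 and DSF1 at 0.42 ± 1.71 with an adjusted p of 0.878.

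Within each replicate the change could be set against counting error alone. DSF1 at 4 h was 1.23 times its 0 h level in replicate 1 (95% counting interval 0.991 to 1.53) and 1.34 times in replicate 2 (1.24 to 1.45). MAN2 was 1.45 times (0.995 to 2.13) and 1.24 times (1.09 to 1.42). The 2 dehydrogenases thus had ratios above 1 in both replicates, the highest at 1.45. HXT13 was 0.654 times in replicate 1 (0.312 to 1.34) and 1.49 times in replicate 2 (1.32 to 1.68), and HXT17 was 1.47 times in replicate 2 (0.893 to 2.51). These ratios compare single libraries and carry no replicate error, and leaving out grr1-deficient 0 h replicate 1 or 4 h replicate 2 turned the fitted direction of all 4 genes.

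The difference between the responses of the genotypes was tested as an interaction. In the fit over both replicates its spread holds the replicate gap that the rule chose on. That none of the 4 genes passed there was thus also made likely in advance. In all, 2182 of 5855 genes (37.3%) passed, 1166 of them positive and 1016 negative (451 and 2486 with total counts), and none of the 4 hexitol genes did; at an unadjusted p under 0.05 there were 2745 genes (46.9%) and none of the 4, and DESeq2 called none. The log2 interaction, grr1-deficient response minus WT response, was -2.95 ± 2.88 (SE) for DSF1 (edgeR adjusted p = 0.480) and -3.23 ± 3.73 for MAN2 (edgeR adjusted p = 0.548). For HXT13 it was -0.64 ± 8.06 (edgeR adjusted p = 0.961), and for HXT17 the WT response has no value. Without grr1-deficient replicate 2 at both times, it was -3.07 ± 0.42 for DSF1 (edgeR adjusted p = 1.52e-06; 1.52e-06 to 0.872 over 16 alternatives) and -3.07 ± 0.81 for MAN2 (edgeR adjusted p = 0.00291; 0.00291 to 0.863 over 14 alternatives). With both replicates and a replicate block, it was -3.01 for DSF1 (edgeR adjusted p = 0.000126) and -3.22 for MAN2 (edgeR adjusted p = 0.00732). HXT13 had -1.835 ± 1.37 (SE) without grr1-deficient replicate 2 at both times, and -0.88 ± 1.16 with the block (edgeR adjusted p = 0.572). The labels do not say that a replicate number marks 1 culture at both times. With 1 library left out, the value of DSF1 ran from -0.75 without grr1-deficient 0 h replicate 2 to -5.25 without 4 h replicate 2, and that of MAN2 from -0.89 without grr1-deficient 0 h replicate 2 to -6.96 without WT 0 h replicate 2. The difference between the genotypes for the dehydrogenases thus passed without replicate 2 or with the block, and not in the fit over both replicates without a block.

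HXT17 and MAN2 reads kept a near-constant proportion to those of their paralogs. In the grr1-deficient libraries HXT17 had 5.00, 5.80, 6.67 and 5.73 reads for each 100 HXT13 reads, and 5.71 over all 8 libraries. MAN2 had 27.5 to 37.9 reads for each 100 DSF1 reads in the 6 libraries with at least 72 DSF1 reads, and 34.4 over all. The proportion held while HXT13 reads ranged from 15 to 1275 and DSF1 reads from 72 to 2719.

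Reads that fit both copies cannot be assigned, and the sources used here do not say how the authors' counting treated them. Of the windows of 25 nt in HXT13, 52.5% occur unchanged in HXT17, as do 26.8% of those of 50 nt, 12.3% of those of 75 nt and 7.02% of those of 100 nt. For DSF1 and MAN2 the shares were 74.6%, 58.5%, 46.8% and 36.7%. The share of reads given to HXT17 and MAN2 was thus close to the share of windows of 100 nt that the copies hold in common, and under the shares for shorter windows. Reads of 25 to 100 nt were counted, per the file headers, and the reads of the copies cannot be told apart here.

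**Figure D3:**
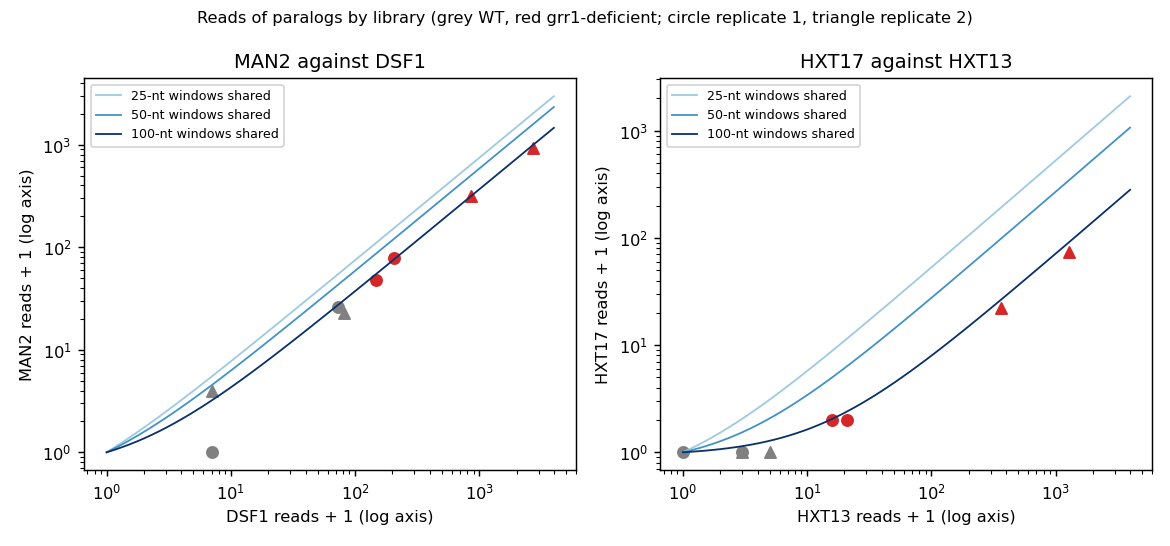
Reads of MAN2 against DSF1 (left) and of HXT17 against HXT13 (right) in each of the 8 libraries, plus 1 on both logarithmic axes; grey is WT, red is grr1-deficient, circles are replicate 1 and triangles replicate 2, and lines show the second gene at the share of 25, 50 or 100 nt windows that the pair has in common. The points lie along the 100 nt lines (36.7% and 7.02%) over the range of reads.

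The genes on either side of the chromosome XIV pair held no reads. PDR18, an ABC transporter gene, and YNR071C on the HXT17 side had 0 reads in all 8 libraries, as did AIF1, a cell death factor gene, on the MAN2 side. Of 6591 gene regions with a countable length, 121 (1.84%) had 0 reads in all libraries. Of the 17 genes in the last 40 kb of chromosome XIV, 4 had none, against 0 of 17 in the first 40 kb of chromosome V. COS10, beyond AIF1, had 7614 reads, but it belongs to a family of similar copies near chromosome ends. HXT17 and MAN2 thus lay between genes without reads on either side.

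On chromosome V, the genes flanking the pair had reads in all libraries and other patterns. DLD3, a lactate dehydrogenase next to DSF1, had 642.97, 625.14, 232.9, 241.14, 454.42, 790.82, 337.91 and 566.34 CPM across the libraries. It fell in WT by 1.42 on the log2 scale (SE 0.31; edgeR adjusted p = 0.00373; 0.123 with total counts, where it fell by 0.67), and its difference of replicate 2 from replicate 1 was 0.80 at 0 h and 0.75 at 4 h. RMD6, YEL068C and YEL067C differed between the replicates by -0.42 to 0.51 on the log2 scale. YEL068C, next to HXT13, had a WT log2 change of -0.63 ± 0.23 (edgeR adjusted p = 0.0382), which was 0.12 with total counts (edgeR adjusted p = 0.691). RMD6 had 0.04 in WT (edgeR adjusted p = 0.867) but 0.79 with total counts (edgeR adjusted p = 0.0199), a value close to the median gene on that scale, and YEL067C had -0.11 (edgeR adjusted p = 0.804) and 0.63 (edgeR adjusted p = 0.132). Among these 6 genes, DSF1 and HXT13, which were chosen for that gap, alone were past 4-fold between the replicates. YEL067C overlaps HPA3 on the other strand, and their reads cannot be told apart where strand is not stated.

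**Figure D4:**
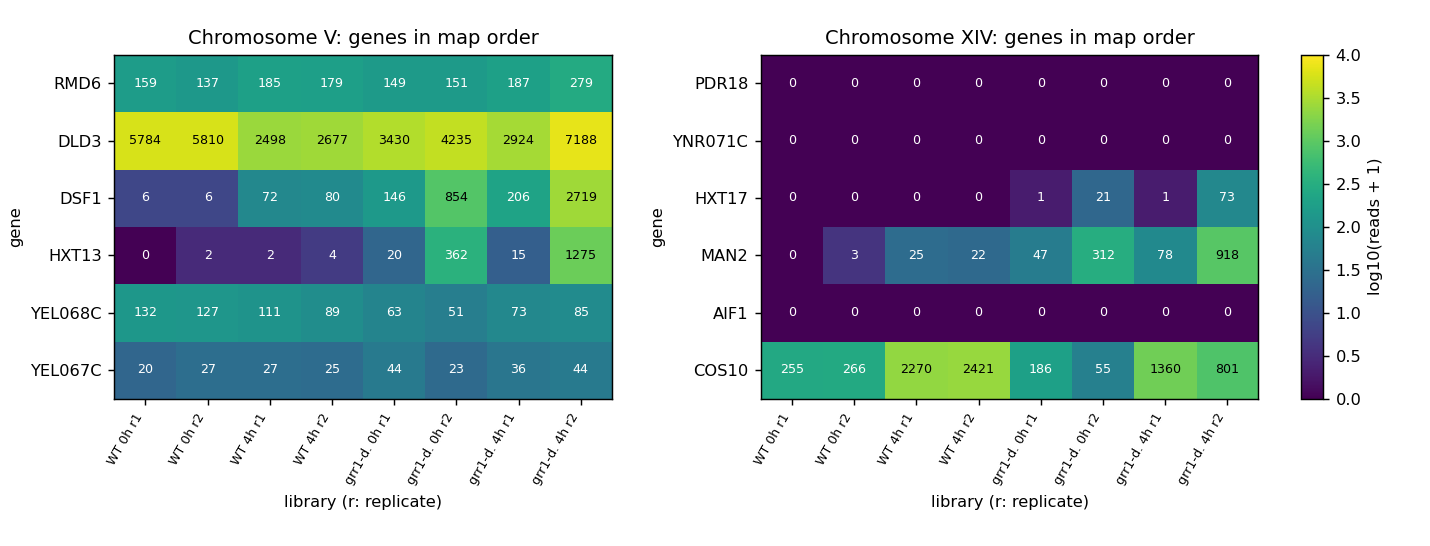
Reads per library for the 6 genes around each pair, in map order, coloured by log10 of reads plus 1; columns are libraries by group and replicate (r). On chromosome V only DSF1 and HXT13 have few reads in WT and many in grr1-deficient replicate 2, and on chromosome XIV the genes flanking HXT17 and MAN2 on either side have 0 reads.

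The deposited counts place a 5′ untranslated region of 552 bases before HXT13, which is 24.6% of its countable length of 2247 bases. Of the HXT13 reads in grr1-deficient replicate 2, 5.25% at 0 h (95% counting interval 3.19 to 8.08) and 5.96% at 4 h (4.72 to 7.40) lay in it. Its RPKM divides by that whole length, while the other 3 genes have no deposited 5′ part, so levels per coding base place HXT13 higher beside them. In grr1-deficient replicate 2, HXT13 had 20.2 reads for each 100 coding bases at 0 h and MAN2 had 20.7. At 4 h HXT13 had 70.7 and MAN2 had 60.8, so per coding base their order turned in that library. In replicate 1 HXT13 stayed under MAN2, at 1.06 against 3.11 reads for each 100 coding bases at 0 h and 0.708 against 5.17 at 4 h.

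The 500 bases upstream of each start codon were searched on both strands for short motifs of carbon-source regulators, over 6000 genes. The Mig1-type motif, spelled CCCCGC in one form, CCCCAC in another form, CCCCGG in a further form and CCCCAG in the last, is bound by a repressor active on glucose. It was found 3 times before HXT13, 2 times before HXT17 and 0 times before DSF1 and MAN2. A match occurs before 22.7% of the genes. The windows around these matches are shown because they are the motif matches that part the transporters from the dehydrogenases; capitals mark the matches, read on the strand opposite to the motif as spelled above, and those of HXT13 lie within its deposited 5′ untranslated region.
HXT13, chrV:23684-23710, minus strand, 2 adjoining matches: aaatGTGGGGGTGGGGtatgcgtttca
HXT13, chrV:23656-23682, minus strand: gtgcGTGGGGaaagtataatcatcagt
HXT17, chrXIV:772158-772184, plus strand: ggagGTGGGGtatgcatttttgtgcat
HXT17, chrXIV:772187-772213, plus strand: agtgGCGGGGtattaagaataatgcac
The Rgt1 motif CGGANNA, of the repressor that glucose signalling through Grr1 removes, had 0 matches before all 4 genes and occurs before 42.0% of genes. The Rtg1/Rtg3 motif GTCAC of the retrograde pathway also had 0 matches (42.5% of genes). The stress motif CCCCT was found 1 time before HXT13 and 1 time before DSF1 (34.1%), and CCAAT, the motif of the Hap complex, 1, 2 and 3 times before HXT13, DSF1 and MAN2 (62.4%). A match describes letters in this window and shows no binding. For HXT13 the window lies within its deposited 5′ untranslated region of 552 bases, so the bases before that region were not searched.

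The closest relatives also lie in pairs of 1 transporter and 1 dehydrogenase, but with both genes of a pair on the same strand. HXT15 and HXT16 are hexitol transporters, and SOR1 and SOR2 are sorbitol dehydrogenases that lie beside them, SOR2 with HXT15 on chromosome IV and SOR1 with HXT16 on chromosome X. HXT15 had reads of 2, 1, 4, 6, 5, 14, 4 and 24 across the libraries, and HXT16 had 2, 1, 3, 6, 4, 13, 3 and 21. Both were low everywhere. In grr1-deficient cells replicate 2 was above replicate 1 by log2 differences of 1.69 and 1.64 for HXT15. For HXT16 they were 1.83 and 1.74, and the ranks of both genes were 58 to 79. As CPM ratios without the prior count, these were 3.95 and 4.09 for HXT15 and 4.58 and 4.77 for HXT16. On that scale HXT16 was past 4-fold at both times and HXT15 at 4 h, on few reads. They differ at 2 bases, so their reads cannot be told apart, and neither passed in the 3 comparisons over all libraries.

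SOR1 in WT had 13.8 and 10.7 CPM at 0 h, then 36.0 and 36.3 CPM at 4 h; in grr1-deficient cells it had 20.4 and 35.1 CPM at 0 h, then 39.6 and 41.6 CPM at 4 h. It rose in WT by 1.57 ± 0.25 (SE, log2; edgeR adjusted p = 0.000577) and had 0.56 ± 0.24 in grr1-deficient cells (edgeR adjusted p = 0.0833), an interaction of -1.002 ± 0.34 (edgeR adjusted p = 0.0482). SOR2 differs from it by 1 base and gave nearly the same values. The grr1-deficient replicates of SOR1 differed by 0.78 on the log2 scale at 0 h and 0.07 at 4 h, so the sorbitol dehydrogenases had neither the low WT level nor the replicate gap of DSF1 and MAN2. Of the 4 relatives, 2 rose in WT and 0 fell, where 32.5% of all genes rose, and none passed in grr1-deficient cells. Those 2 were SOR1 and SOR2, whose reads cannot be told apart, so they are not 2 independent results. The median log2 change of the 4 in WT was 1.49 against 0.03 over all genes.

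Genes of neighbouring pathways, in lists chosen with earlier results known, are set beside the hexitol genes by counts, first with TMM and then with total counts. Over all genes, 32.5% rose in WT with TMM and 57.0% with total counts, 65.6% changed in WT with TMM, and 46.0% changed in grr1-deficient cells. Of 8 other polyol and reductase genes, 7 rose and 0 fell in WT (8 and 0 with total counts; median log2 change 2.24), including GCY1, a glycerol dehydrogenase, by 3.68 ± 0.44 (edgeR adjusted p = 0.000423) and GRE3, an aldose reductase, by 3.001 ± 0.32 (edgeR adjusted p = 0.000109). In grr1-deficient cells 1 rose and 1 fell. The WT rise of the mannitol dehydrogenases was of a size found in this list. No member of it was past 4-fold between the grr1-deficient replicates at both times. Among nuclear genes 0.206% were so in the higher and 0.0686% in the lower direction, so lists of this size would seldom hold one. The hexitol genes were chosen for that gap, so these lists are no contrast to them.

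Of 14 hexose transporter and sensor genes tested, 3 rose and 3 fell in WT (6 and 1 with total counts), and 2 rose and 4 fell in grr1-deficient cells; in WT, 6 of 14 is a smaller share than the 65.6% of all genes. HXT5, a transporter made in slow growth, rose by 4.99 ± 0.29 in WT (edgeR adjusted p = 2.24e-06), and HXT4, a high-affinity transporter, fell by 2.73 (SE 0.40; edgeR adjusted p = 0.000541). None of these transporters was past 4-fold between the grr1-deficient replicates at both times, where 0.206% of nuclear genes were higher and 0.0686% lower. Of 20 glucose control genes, 6 rose and 6 fell in WT (13 and 2 with total counts), with the activators of glucose-repressed genes ADR1 at 4.67 ± 0.31 (edgeR adjusted p = 4.22e-06) and CAT8 at 3.86 ± 0.65 (edgeR adjusted p = 0.00334), and 5 rose and 3 fell in grr1-deficient cells.

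Of 9 known targets of the Tup1-Cyc8 corepressor tested, 3 rose and 1 fell in WT (5 and 0 with total counts). In grr1-deficient cells 3 rose and 1 fell. In the fit over 8 libraries, 3 of 9 is close to the 32.5% of all genes that rose in WT. In the fit on the WT libraries alone, 5 of the 9 rose and 3 fell, where 41.0% of all genes rose. HUG1, a DNA damage response gene, rose by 3.32 ± 0.95 in WT (edgeR adjusted p = 0.0245), and ANB1, a hypoxic translation factor gene, fell by 1.93 (SE 0.71; edgeR adjusted p = 0.0395; 0.179 with total counts). Of 12 retrograde genes tested, 6 rose and 2 fell in WT (9 and 1 with total counts), and 0 rose and 7 fell in grr1-deficient cells. ATO3, an ammonium exporter, fell by 2.19 in WT (SE 0.31; edgeR adjusted p = 0.000371), and PUT1, proline oxidase, rose by 1.65 ± 0.27 (edgeR adjusted p = 0.000932). Neither list had a member past 4-fold between the grr1-deficient replicates at both times, where 0.206% of nuclear genes were higher and 0.0686% lower.

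Of 14 glyoxylate and gluconeogenesis genes, 5 rose and 1 fell in WT (7 and 1 with total counts). In grr1-deficient cells 0 rose and 2 fell. In the fit over 8 libraries, 5 of 14 is also close to the 32.5% of all genes that rose in WT. In the fit on the WT libraries alone, 13 of the 14 rose and 1 fell, where 41.0% of all genes rose. The median log2 change there was 2.025, against 0.026 over all genes. IDP2, a cytosolic isocitrate dehydrogenase, rose by 3.70 ± 1.18 in WT (edgeR adjusted p = 0.0447), and ADY2, an acetate transporter, by 2.96 ± 0.87 (edgeR adjusted p = 0.0163). This list was lower in grr1-deficient replicate 2, with a median log2 difference of -1.31 at 0 h and 4 h together. Over all nuclear genes the median was -0.006. The hexitol genes had 3.38, but these differences chose them, so that value is a description and no contrast. MLS1 had 353.2 and 5.23 CPM at 0 h and 32.36 and 4.25 CPM at 4 h in replicates 1 and 2.

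Over the 8 libraries, the nuclear genes whose log2 CPM was most like that of HXT13 were VPS24, an endosomal sorting subunit (Pearson r 0.98), JIP3 (0.975), HXT17 (0.972), MCH5, a riboflavin transporter (0.971), YOR231C-A (0.966), YIL058W (0.966), YNR065C (0.962), YOS9, a lectin of ER-associated degradation (0.96), YHR022C (0.958) and CNL1 (0.958). The relative HXT15 had r = 0.941 (place 19), MAN2 0.937 (place 22), the relative HXT16 0.930 (place 29) and DSF1 0.929 (place 30). These values used a prior count of 2, and with 0.5 the order of DSF1 and the relatives turned. There DSF1 had 0.94, HXT15 had 0.911 and HXT16 had 0.901, so no order among them is claimed. MCH5 had 40.02, 33.7, 31.8 and 32.3 CPM in WT and 50.5, 212.5, 57.6 and 212.3 CPM in grr1-deficient cells. YHR022C overlaps ECM12 on the other strand, and its reads are uncertain. Reads of HXT17 and HXT13 cannot be told apart with certainty either. The points share libraries and fall into few clusters, so these values describe likeness over 8 libraries only, and 5 of the 10 genes stayed among the 10 with a prior count of 0.5.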

How the data were processed

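The deposited files hold read counts per gene region (exon positions, split into 5′ untranslated, coding and 3′ untranslated parts), made with plastid per the file headers, which placed reads of 25 to 100 nt at the position 25 nt from the 5′ end. The same files hold the authors' RPKM, scaled by countable length. Deposited comparison tables hold the authors' log2 fold changes, standard errors and p-values, and were used for the values credited to them. Build R64, and the tools STAR 2.7.3a, Bowtie2 2.3.5, cutadapt 2.6 and DESeq2, come from the submitters' processing notes, with no roles. The sources used here do not say how strand and multiply mapping reads were handled.

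Exon counts of 8 libraries entered edgeR 4.0.16 under R 4.3.3 (quasi-likelihood, robust, TMM, default expression filter, a coefficient per group, prior count 0.125), two-sided, and p-values were adjusted by Benjamini-Hochberg over every gene tested, with 0.05 as threshold; DESeq2 1.42.0 was an alternative. The fit was tested on simulated data. Counting intervals are exact 95% intervals and cover counting error only. With a gene at 0 reads a ratio puts 3 reads in that group and leaves out the counting error of the other group. The labels call the replicates biological. In the check of pairing, the replicate difference at 0 h correlated with that at 4 h at 0.003 in WT and 0.46 in grr1-deficient cells across 5831 genes, so same-numbered libraries deviated together in grr1-deficient cells and not in WT. The labels do not say that a number marks 1 culture, and the fit with a replicate block was kept as an alternative.

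Symbols are those of RefSeq R64 for 6008 identifiers and the authors' tables for 182; 105 regions have a countable length of 0. Named genes were the 4 hexitol genes, 4 relatives, the 2 neighbours on each side of each pair, genes past 4-fold between the grr1-deficient replicates at both times, the 10 most like HXT13, and per list the 2 with the largest change among those called in WT (the rule allows up to 4). SAE3, COS10 and the mating-type genes were named as limits or checks. The genes, lists and comparisons were chosen with earlier results of these data known.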

Additional observations from a re-analysis of the deposited data

Results flagged for a closer look

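The change from 0 h to 4 h differed between the genotypes for 35 of 81 list genes in the edgeR interaction test, 8 with a positive and 27 with a negative value (37.3% of all genes passed). The value is the grr1-deficient log2 change minus the WT one, and it is given for the 10 that are also named in the comparisons above. The values were -1.002 for SOR1 (edgeR adjusted p = 0.0482) and -1.02 for SOR2 (edgeR adjusted p = 0.0422), whose reads cannot be told apart. They were -3.74 for GCY1 (edgeR adjusted p = 0.0041), -2.45 for GRE3 (edgeR adjusted p = 0.00427), -3.40 for HXT5 (edgeR adjusted p = 0.000351) and 3.99 for HXT4 (edgeR adjusted p = 0.00453). For the regulators they were -3.23 for ADR1 (edgeR adjusted p = 0.000569) and -3.73 for CAT8 (edgeR adjusted p = 0.0206), and for PUT1 and ADY2 they were -1.57 (edgeR adjusted p = 0.0134) and -4.19 (edgeR adjusted p = 0.019). With total counts the median gene moves from 0.03 to -0.65 in this comparison, and all 10 kept their sign and stayed under 0.05. Of these 10, HXT4 had the positive value, with a fall in WT and a log2 value of 1.26 in grr1-deficient cells (edgeR adjusted p = 0.131).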

How the results depend on the processing

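Counts of genes called were within 1.5 times the reported ones except 1642 in grr1-deficient cells with that genotype's libraries alone, 1678 for replicate 1 against WT at 4 h with DESeq2, and the interaction with 1 library left out (1272 to 2470, the lowest without WT 4 h replicate 2). With 1 library left out, counts ran from 3087 to 4061 in WT, 2267 to 2724 in grr1-deficient cells, and 3204 to 3652 and 2053 to 3130 for replicate 1 against WT at 0 h and 4 h. Of the hexitol genes, 1 was called in WT with DESeq2 and 2 with the WT libraries alone, with the replicate block or without grr1-deficient replicate 2; in the interaction 2 were called with the block or without that replicate, and with both replicates 0 and 0 of 4 differed from WT at 0 h and 4 h. With the replicate block, for which same-numbered libraries deviated together in grr1-deficient cells (0.46) and not in WT (0.003), 4096, 3042 and 2560 genes were called in WT, grr1-deficient cells and the interaction, and 1 hexitol gene, DSF1, in grr1-deficient cells (0.37; edgeR adjusted p = 0.0317). In grr1-deficient cells DSF1, HXT13, HXT17 and MAN2 turned to -0.42, -0.39, -0.34 and -0.51 without 0 h replicate 1, and to -1.90, -4.32, -3.85 and -1.82 without 4 h replicate 2 (2.63, 4.28, 4.43 and 2.72 without 0 h replicate 2); HXT13 turned to -0.63 without replicate 2 at both times. The HXT13 interaction turned to 3.05 without grr1-deficient 0 h replicate 2, 0.33 without 4 h replicate 1 and 0.26 without WT 0 h replicate 1, and was -5.51 at the lowest. Each such fit has fewer samples, and leaving out 1 grr1-deficient library sets a single replicate against 2 that lie far apart. The cause of the turns was not tested. Total counts, no filter, coding reads, summed paralogs and dropped paralogs changed no call of a hexitol gene. Depth limits HXT13 and HXT17 in WT, and the 2 replicates per group limit every test.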
